A study of Mus musculus with 20 samples.

Results

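The genes described here encode lysosomal hydrolases, their cofactors and proteins of the lysosomal membrane. They were taken from a written list of 33 symbols, chosen by function but with earlier results of these data known. All 33 were among the 13225 genes of the expression table. Expression was measured by poly-A RNA sequencing of alveolar macrophages, the resident macrophages of the airspaces, which had been sorted from mice by their surface CD45, SiglecF and CD11c. There were 20 mice with 1 library each, 5 in each of 4 groups. KO smoke mice carried the miR-155 knockout of strain B6.Cg-Mir155tm1.1Rsky/J and were exposed to cigarette smoke for 4 weeks, and KO air mice of the same strain were kept in air for that time. WT smoke and WT air mice were wild-type C57BL/6 animals under the same exposures. Age and sex were not given in the labels used here. The labels give the knockout as a property of the strain and name no promoter or cell type that would restrict it. The comparisons ask how smoke changes these genes in each genotype, whether the genotypes differ within an exposure, and whether the response to smoke differs between genotypes.

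Lysosomes are acidic organelles in which macrophages break down what they engulf and what autophagy delivers. Soluble hydrolases take apart glycans, sulphated glycosaminoglycans, sphingolipids, neutral lipids and proteins, and the membrane proteins keep the compartment closed, move cholesterol and release calcium. Alveolar macrophages depend on these enzymes to clear surfactant lipid and inhaled particles, and inherited loss of a single one often fills macrophages with undegraded substrate. Many of these genes carry a short promoter element, read by the transcription factors TFEB and TFE3, through which they can be expressed together.

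Levels are given as CPM, which are reads of a gene scaled to a common library total, and changes as differences of mean log2 CPM with the limma standard error (SE, n = 5 mice per group). A call means a limma p under 0.05 after Benjamini-Hochberg adjustment across the 13225 genes. The p-values set a difference of group means against the spread between mice. That spread was estimated over all 4 groups together, so a gene has the same SE in KO and in WT. Library totals ran from 6885680 to 11952088 reads. All members except Sgsh had at least 174 reads in every library. Over the 33 members the median coefficient of variation between mice was 6.84% in KO smoke, 7.27% in KO air, 6.17% in WT smoke and 6.56% in WT air. The KO air libraries IIIb2, IIIb3 and IIIb4 stand apart, because 1645, 1524 and 1451 genes had 0 reads in them, while the remaining 17 libraries had 259 to 1224 such genes. Their totals, 7422925, 6885680 and 8074431 reads, were among the lowest. The 1224 genes were in KO smoke IVa5, at a total of 7336133 reads. The part of depth in these counts was not tested. Mir155hg, the host transcript of miR-155, had 8 reads over KO smoke, 25 over KO air, 48 over WT smoke and 2 over WT air libraries, but its reads do not check the genotype, since the removed stretch is not named in the labels. All 11 alveolar macrophage markers were present, and their summed level was 25577 to 29958 CPM in KO smoke, 24393 to 30111 in KO air, 23398 to 29008 in WT smoke and 25784 to 27717 in WT air. Single markers did change with smoke: 3 of the 11 rose and 4 fell in KO, and 2 rose and 5 fell in WT. Car4, a carbonic anhydrase gene, rose by 1.09 ± 0.090 log2 in KO (adjusted p 6.30e-10) and 1.52 ± 0.090 in WT (adjusted p 6.09e-13). Siglecf, which encodes the sorting antigen SiglecF, fell, with log2 changes of -1.15 ± 0.13 in KO (adjusted p 1.41e-07) and -1.25 ± 0.13 in WT (adjusted p 2.25e-08).

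Smoke raised close to the same share of the lysosomal genes in both genotypes and lowered few. In KO mice 15 of the 33 genes rose with smoke and 1 fell, where over all genes 15.5% were called, 7.05% higher and 8.45% lower. In WT mice 15 rose and 2 fell, against 22.4% of all genes called, 9.66% higher and 12.8% lower. All genes include scarce ones, whereas 32 of the 33 members had a mean log2 CPM of at least 3. With only the 8907 genes at that level fitted, 793 rose and 1175 fell in KO, and 1093 rose and 1666 fell in WT. Of the 32 members 15 then rose and 1 fell in KO, and 14 rose and 3 fell in WT. The median change of the 33 was 0.22 log2 in KO, where the median of all genes was -0.012, and 0.17 in WT, where that of all genes was -0.025. Changes were above zero for 28 members in KO and 27 in WT. Every smoke library lay above every air library for 14 members in KO and below for 1, against 4.54% and 5.34% of all genes. In WT these counts were 14 above and 2 below, against 8.15% and 10% of all genes. The smoke comparisons of the 2 genotypes share no library, though they share the estimate of the spread. Of the members that rose, 12 did so in both genotypes, which is 80.0% of the 15 in KO and 80.0% of the 15 in WT. Over all genes 605 rose in both, which is 64.8% of the 933 in KO and 47.3% of the 1278 in WT. Lamp2, Gaa and Arsa passed in KO but not in WT, and Sgsh, Fuca1 and Galns in WT but not in KO, and the test of the difference itself called none of these 6. Neither genotype had a call for Glb1, Gusb, Hexa, Man2b1, Manba, Neu1, Arsb, Asah1, Lipa, Ppt1, Cln3, Mcoln1 or Scarb2, which are 13 of the 33.

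**Figure D1:**
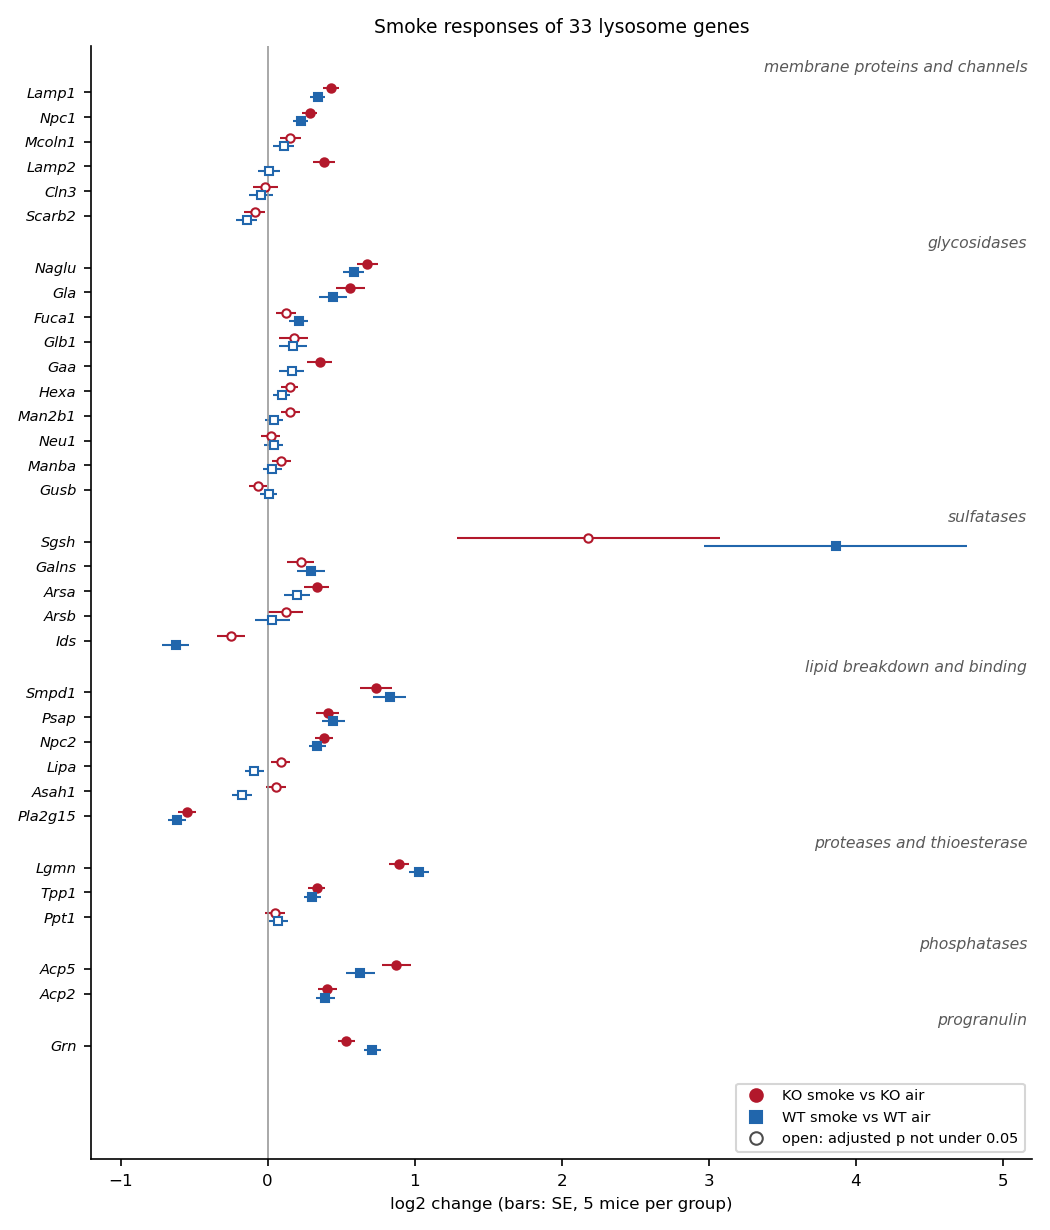
Change of each of the 33 lysosomal genes with smoke, as log2 change on the horizontal axis with bars of 1 SE (5 mice per group), red circles for KO smoke against KO air and blue squares for WT smoke against WT air; filled symbols have an adjusted p under 0.05. Most filled symbols lie to the right of zero in both genotypes, Lgmn at 0.89 and 1.03, while Pla2g15 lies to the left in both and Sgsh has by far the widest bars.

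Together the 33 genes took 2.07 to 2.39% of the reads of KO smoke libraries, 1.75 to 1.84% in KO air, 2.20 to 2.43% in WT smoke and 1.84 to 1.93% in WT air. The mean shares were 2.22 ± 0.114%, 1.79 ± 0.0310%, 2.30 ± 0.0899% and 1.88 ± 0.0376% in that order (SD, n = 5 each). In each genotype the share of the lowest smoke library exceeded that of the highest air library. Psap contributed more reads than any other member in every group. Its mean was 7908 CPM in KO smoke and 5948 in KO air, and 8689 in WT smoke and 6346 in WT air. The share weighs such abundant members most and does not show a rise of all 33 genes. In bulk RNA from sorted cells, a change in the makeup of the sorted cells and a change of RNA per cell cannot be told apart.

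**Figure D2:**
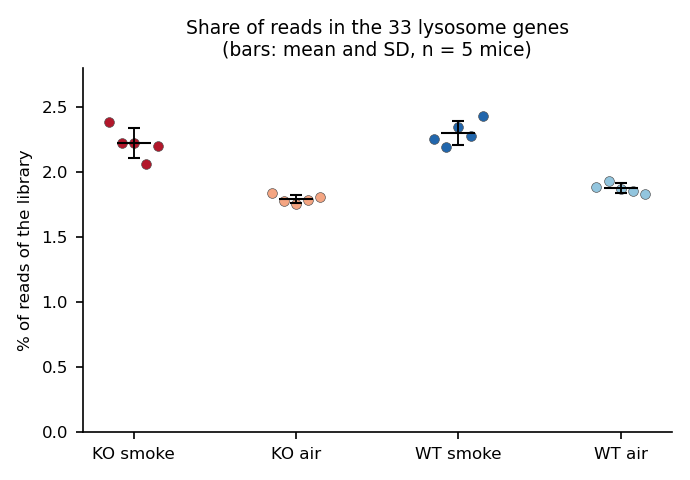
Share of each library's reads that fell on the 33 lysosomal genes, in percent, by group; points are mice and bars the mean and SD (n = 5). The smoke libraries lie at 2.07 to 2.39% in KO and 2.20 to 2.43% in WT, above all 10 air libraries.

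Markers of other cells moved as well, and their part in the lysosomal changes was not tested. The 5 measured neutrophil markers of 7 listed summed to 139 to 314 CPM in KO smoke against 86.1 to 134 in KO air, and to 159 to 357 in WT smoke against 90.3 to 129 in WT air. Most of that sum in smoke was Mmp8, a collagenase gene, at a mean of 158 CPM in KO smoke and 188 in WT smoke. S100a9 averaged 0.0887 CPM in KO smoke and 1.73 in WT smoke and was at 0 in all air libraries. Mmp8 and S100a9 were named after their values were seen, and levels of the remaining neutrophil markers are not reported here. Of the 5 neutrophil markers 3 rose and 1 fell with smoke in each genotype. Their median change was 1.62 log2 in KO and 0.99 in WT, and the largest rise was 2.42 in KO and 3.95 in WT. The fall was -1.59 log2 in KO and -1.69 in WT. The 10 monocyte and interstitial macrophage markers summed to 429 to 529.9 CPM in KO smoke, 560.3 to 803 in KO air, 423 to 682 in WT smoke and 529 to 665 in WT air. In that list 3 genes fell and 1 rose with smoke in KO, and 2 fell and 4 rose in WT, where C1qa, C1qb and C1qc, which are scarce, reached means of 17.7, 17.5 and 12.3 CPM in smoke. The 4 measured dendritic cell markers of 6 summed to at most 22.5 CPM in a library and Il7r, the only T and NK cell marker measured of 6, to at most 39.3 CPM, both in WT smoke. In every library the only B cell marker measured of 5, Ighm, and the only endothelial and stromal one of 5, Kdr, stayed under 2 CPM. The 5 measured epithelial markers of 9 summed to 125 to 142 CPM in KO smoke, 128 to 208 in KO air, 143 to 159 in WT smoke and 120.4 to 187 in WT air. Of these 5, 1 rose and 1 fell with smoke in KO, and 2 rose and 1 fell in WT. Other listed markers were not analysed here.

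The promoters were searched for the TFEB and TFE3 element, because members that rose together can be read against a sequence they share. The window ran from 250 bases before to 50 bases after the annotated start, taken from RefSeq on GRCm38.p6, and 30 of the 33 members had an entry (Asah1, Galns and Npc1 had none). TCACGTG was found on either strand in 10 of the 30 members, or 33.3%, against 7.17% of the 9379 genes of the expression table with an entry and 4.29% of all 27025 genes with one. Its shorter core CACGTG, which lies inside every TCACGTG and reads the same on both strands, was found in the same 10 members and in 12.1% of the 9379 and 8.09% of the 27025 genes. The 10 were Lamp1, Gaa, Gla, Glb1, Naglu, Sgsh, Arsa, Lgmn, Cln3 and Mcoln1. Of these, 6 rose in KO and 5 in WT with 0 lower, with median log2 changes of 0.39 in KO and 0.27 in WT. Among the 20 members without the element, 8 rose and 1 fell in KO, and 8 rose and 2 fell in WT, with medians of 0.14 and 0.058. These splits are descriptions, and a match of letters is not evidence that a factor binds there.

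The promoters of 4 members that rose in both genotypes are shown with, for contrast, that of Mcoln1, which holds the element and was called in neither. These 4 are the only ones with the element among the 12 that rose in both. Smpd1, Psap, Npc2, Tpp1, Acp2, Acp5 and Grn rose in both without it, and Npc1 had no entry. Each is printed 5′ to 3′ on the strand of its gene, and capitals mark TCACGTG or its reverse complement CACGTGA. Counted from the annotated start at 0 to the first base of the core, the element lies at -61, -45, -28 and -15 in Lamp1, at -227 and -194 in Gla, at -73 in Naglu, at -49 in Lgmn and at -71 and -45 in Mcoln1. The Lamp1 window is chr8:13158911-13159210, plus strand, that of Gla chrX:134600956-134601255, minus strand, that of Naglu chr11:101069844-101070143, plus strand, that of Lgmn chr12:102439043-102439342, minus strand, and that of Mcoln1 chr8:3500269-3500568, plus strand. Lgmn has a further annotated start whose window does not hold the element.
Lamp1: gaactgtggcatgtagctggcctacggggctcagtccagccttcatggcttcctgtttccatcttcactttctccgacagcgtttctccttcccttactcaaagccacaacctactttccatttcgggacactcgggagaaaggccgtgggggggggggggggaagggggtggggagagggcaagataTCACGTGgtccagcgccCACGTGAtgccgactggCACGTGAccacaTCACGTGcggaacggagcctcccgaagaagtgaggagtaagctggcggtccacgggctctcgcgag
Gla: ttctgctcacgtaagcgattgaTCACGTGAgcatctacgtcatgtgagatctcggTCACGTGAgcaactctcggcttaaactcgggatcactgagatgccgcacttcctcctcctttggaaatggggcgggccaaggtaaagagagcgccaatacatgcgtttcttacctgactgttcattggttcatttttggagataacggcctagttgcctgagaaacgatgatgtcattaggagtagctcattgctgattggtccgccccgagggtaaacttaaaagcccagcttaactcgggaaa
Naglu: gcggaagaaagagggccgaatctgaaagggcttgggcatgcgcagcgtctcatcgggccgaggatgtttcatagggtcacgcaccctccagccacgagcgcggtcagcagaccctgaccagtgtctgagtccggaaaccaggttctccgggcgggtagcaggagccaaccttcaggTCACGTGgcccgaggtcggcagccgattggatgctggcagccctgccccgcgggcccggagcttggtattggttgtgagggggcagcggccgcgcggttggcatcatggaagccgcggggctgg
Lgmn: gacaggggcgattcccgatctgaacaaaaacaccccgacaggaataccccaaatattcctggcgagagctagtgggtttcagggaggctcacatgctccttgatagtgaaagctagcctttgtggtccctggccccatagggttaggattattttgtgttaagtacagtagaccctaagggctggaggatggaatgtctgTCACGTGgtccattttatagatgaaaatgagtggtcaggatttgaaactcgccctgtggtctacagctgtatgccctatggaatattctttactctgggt
Mcoln1: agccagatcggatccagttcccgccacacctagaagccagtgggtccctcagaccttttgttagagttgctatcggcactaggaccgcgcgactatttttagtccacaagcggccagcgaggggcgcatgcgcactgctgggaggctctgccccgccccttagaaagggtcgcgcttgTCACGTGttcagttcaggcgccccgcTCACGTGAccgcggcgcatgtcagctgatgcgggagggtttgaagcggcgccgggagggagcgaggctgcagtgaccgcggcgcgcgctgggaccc

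Of the 6 membrane proteins and channels, 3 rose with smoke in KO and 2 in WT, and 0 fell. Lamp1 encodes one of the most abundant proteins of the lysosomal limiting membrane, and its gene lies at chr8:13159161-13175338 (GRCm38, GENCODE M21, as for all gene positions here). It had 1862, 1889, 1894, 1949.8 and 1981 CPM in KO smoke libraries, against 1341, 1371, 1412, 1435 and 1552 CPM in KO air libraries. In WT smoke it had 1885, 1887, 1926, 1955 and 1958 CPM, against 1473, 1497, 1512, 1525 and 1589.6 CPM in WT air. The smoke and air libraries did not overlap in either genotype, and the change was 0.43 ± 0.054 log2 in KO (adjusted p 9.52e-07) and 0.34 ± 0.054 in WT (adjusted p 2.17e-05). Under quantile normalization the WT change of Lamp1 was 0.21 and still passed. Npc1, the membrane protein that exports cholesterol from the lysosome, rose by 0.28 ± 0.052 in KO (adjusted p 0.000224) and 0.23 ± 0.052 in WT (adjusted p 0.00182), with smoke libraries above air libraries in both, and by 0.35 in WT with the trend on transcript length removed. Lamp2, the sister of Lamp1 with a role in chaperone-mediated autophagy, differed between genotypes in its values, and was singled out after they were seen. It averaged 436 ± 42.2 CPM in KO smoke and 334 ± 19.8 in KO air (SD, n = 5 each), a rise of 0.38 ± 0.075 log2 (adjusted p 0.000486). In WT it averaged 391 ± 48.3 CPM in smoke and 387 ± 20.2 in air, a log2 change of 0.0085 ± 0.075 (95% interval -0.14 to 0.16, adjusted p 0.959), and 1 WT smoke mouse, IIa5, was the highest of its group at 470 CPM. Mcoln1, the calcium channel of the lysosomal membrane, changed by 0.15 ± 0.070 in KO and 0.11 ± 0.070 in WT (adjusted p 0.142 and 0.302). Cln3, whose human counterpart is mutated in a childhood neuronal storage disease, changed by -0.015 ± 0.082 and -0.046 ± 0.082 (adjusted p 0.936 and 0.759). For Scarb2, a membrane protein that works as a sorting receptor to lysosomes, smoke gave -0.089 ± 0.071 and -0.14 ± 0.071 (adjusted p 0.447 and 0.164), and its genotype difference is described further on.

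The 10 glycosidases, which remove sugars from glycogen, glycolipids and glycoproteins, were split: 3 rose in each genotype and 0 fell, and 6 were called in neither. Naglu, at chr11:101070012-101077672, encodes the enzyme that removes N-acetylglucosamine from heparan sulphate. Its libraries held 155, 159.8, 174, 177 and 179 CPM in KO smoke, against 96.3, 103, 105, 106 and 119 CPM in KO air. In WT they held 156, 165, 166, 176 and 179 CPM in smoke, against 102, 110.0, 112, 112 and 126 CPM in air. All smoke libraries exceeded all air libraries of their genotype, and the rise was 0.68 ± 0.071 log2 in KO (adjusted p 5.21e-08) and 0.58 ± 0.071 in WT (adjusted p 4.20e-07). Gla, the galactosidase lost in Fabry disease in humans, averaged 113 ± 14.3 CPM in KO smoke and 76.1 ± 7.96 in KO air, and 110.2 ± 10.7 in WT smoke and 80.8 ± 7.44 in WT air (SD, n = 5 each). It rose by 0.56 ± 0.096 log2 in KO (adjusted p 0.000103) and 0.44 ± 0.096 in WT (adjusted p 0.000972), again without overlap of smoke and air libraries.

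Gaa, the glucosidase that degrades glycogen in lysosomes, rose in KO by 0.35 ± 0.085 (adjusted p 0.00397), with overlapping groups, and had 0.16 ± 0.085 in WT (adjusted p 0.182). Without the KO air libraries IIIb2, IIIb3 and IIIb4 the KO change of Gaa was 0.23 and no longer passed (adjusted p 0.207). Fuca1, the lysosomal fucosidase, had 0.12 ± 0.067 in KO (adjusted p 0.228) and rose in WT by 0.21 ± 0.067 (adjusted p 0.0217), with overlapping groups. The WT call of Fuca1 was lost when WT air Ia3 or Ia4 or WT smoke IIb1 or IIb3 was left out (adjusted p up to 0.0729). The other 6 ranged from -0.067 for Gusb, the glucuronidase, to 0.18 for Glb1, the galactosidase of gangliosides and keratan sulphate, in KO, and from 0.0061 for Gusb to 0.17 for Glb1 in WT. Between them lay Hexa, the alpha subunit of hexosaminidase, with 0.15 ± 0.059 in KO and 0.095 ± 0.059 in WT (adjusted p 0.0829 and 0.273). Man2b1 and Manba, the lysosomal alpha- and beta-mannosidases, and Neu1, the sialidase, had log2 changes of 0.15, 0.094 and 0.021 in KO and of 0.043, 0.032 and 0.042 in WT. In KO none of these 6 had an adjusted p under 0.0829, nor in WT one under 0.214.

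**Figure D3:**
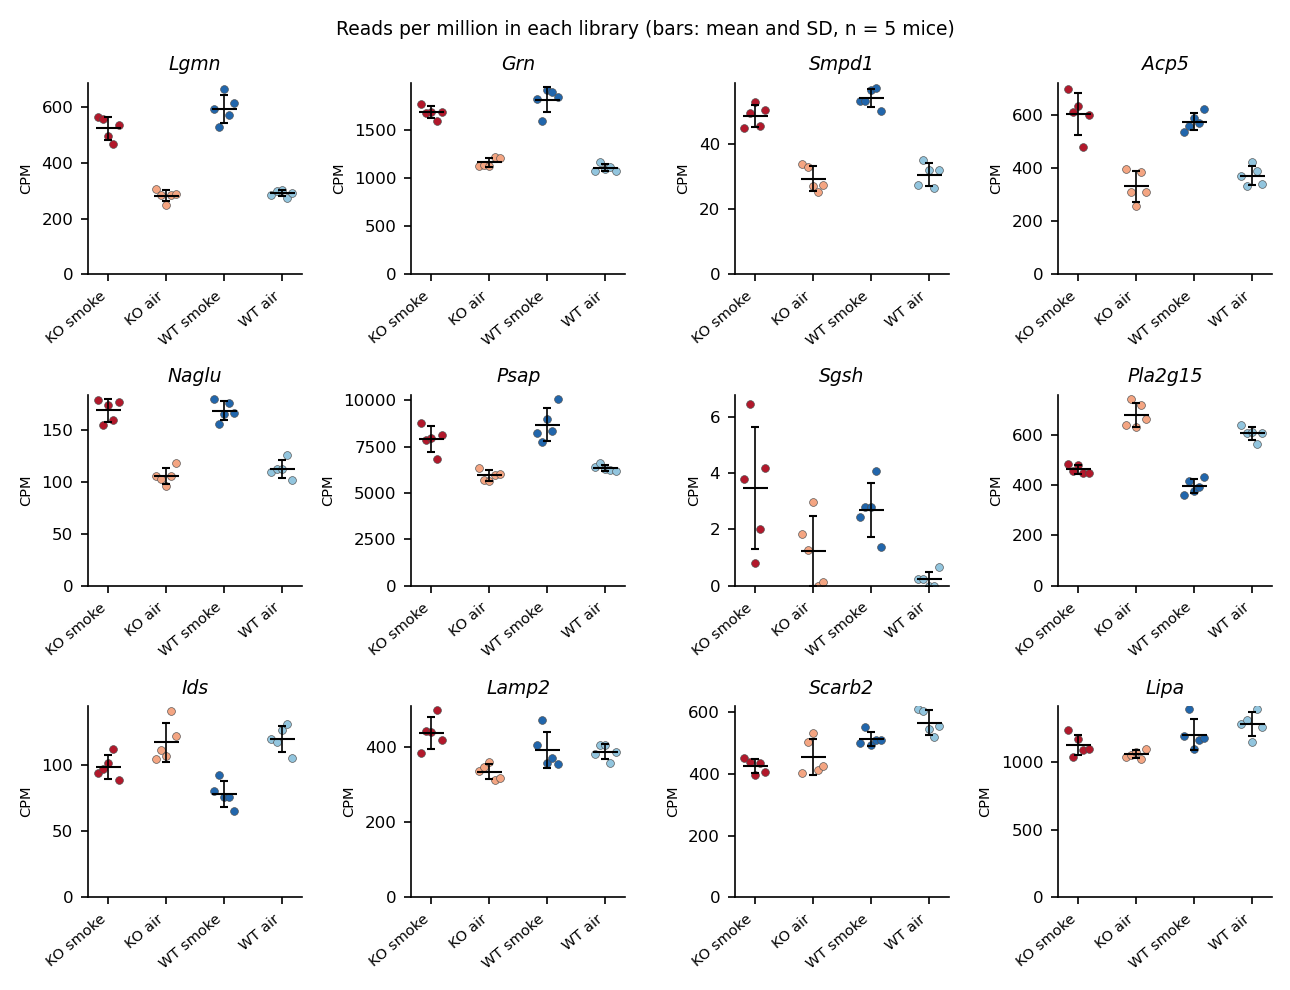
CPM of 12 lysosomal genes in every library, by group; points are mice and bars the mean and SD (n = 5), each panel with its own axis from 0. Smoke libraries lie above air libraries for Lgmn, Grn, Smpd1, Acp5, Naglu and Psap and below them for Pla2g15, KO libraries lie low for Scarb2, and Sgsh stays under 7 CPM in all libraries.

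The 5 sulfatases, which remove sulphate groups from glycosaminoglycans and sulphatide, held both the largest fitted change and a decrease. Sgsh, the sulfamidase of heparan sulphate, at chr11:119343425-119355536, was close to the detection limit. Its libraries had 6, 22, 33, 37 and 59 reads in KO smoke, against 0, 1, 13, 22 and 22 reads in KO air. In WT they had 13, 25, 25, 28 and 38 reads in smoke, against 0, 0, 2, 2 and 6 reads in air. All WT smoke libraries exceeded all WT air libraries, whereas KO smoke and KO air overlapped. Summed over the 5 libraries there were 157 reads in KO smoke and 58 in KO air, and 129 in WT smoke and 10 in WT air. The fitted change was 2.18 ± 0.89 log2 in KO (adjusted p 0.101), and the rise in WT was 3.87 ± 0.89 (adjusted p 0.00187). The KO change passed without KO air IIIb2, at 2.75 (adjusted p 0.0380), and on the log2(CPM + 1) scale, at 1.03 (adjusted p 0.0488), where that in WT was 1.58, but without IIIb2, IIIb3 and IIIb4 together it was 0.87 (adjusted p 0.641). At these read numbers the size of a fold depends on the 0.5 reads added before taking logs. In the annotation 21.6% of the exon bases of Sgsh are shared with Card14 on the opposite strand, and whether reads were counted by strand is not given in the sources used here.

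Ids, the iduronate sulfatase of heparan and dermatan sulphate, at chrX:70343069-70365084, moved the other way. It had 88.8, 93.9, 97.0, 102 and 112 CPM in KO smoke, against 105, 107, 112, 122 and 141 CPM in KO air. In WT it had 65.2, 75.9, 76.0, 80.7 and 93.1 CPM in smoke, against 106, 118, 119.6, 127 and 131 CPM in air. The KO groups overlapped, with a change of -0.25 ± 0.094 log2 (adjusted p 0.0728), while the WT groups did not overlap and Ids fell there, with -0.63 ± 0.094 (adjusted p 1.03e-05). The KO change of Ids passed without KO air IIIa5 (adjusted p 0.0450) or KO smoke IVb2 (0.0414), and was -0.14 (adjusted p 0.527) without IIIb2, IIIb3 and IIIb4. Galns, which acts on keratan sulphate, had 0.22 ± 0.093 in KO (adjusted p 0.106), and passed there without those 3 libraries, at 0.42 (adjusted p 0.0158). In WT it rose by 0.30 ± 0.093 (adjusted p 0.0209), without overlap, but did not pass when WT air Ia4 was left out (adjusted p 0.0899). Arsa, the sulphatide sulfatase, rose in KO by 0.33 ± 0.087 (adjusted p 0.00813), without overlap, and had 0.20 ± 0.087 in WT (adjusted p 0.102). Leaving out the same 3 libraries ended that call, with a change of 0.25 and an adjusted p of 0.157. Arsb, which acts on dermatan and chondroitin sulphate, had 0.12 ± 0.12 in KO and 0.033 ± 0.12 in WT (adjusted p 0.541 and 0.890). Of its exon bases 32.3% are shared with Gm26527 on the opposite strand, and 18.8% of those of Arsa with C230037L18Rik. Smaller such overlaps were 12.8% for Hexa with Tmem202, 9.31% for Lamp1 with Grtp1, 7.67% for Arsb with Gm47210, 7.65% for Cln3 with Apobr, 6.75% for Acp5 with 6530413G14Rik, 4.51% and 0.795% for Npc1 with Rmc1 and Gm15956, 3.51% for Ppt1 with Cap1 and 1.96% for Grn with Fam171a2. Glb1 shared 5.49% of its exon bases with Tmppe on the same strand, which counting by strand would not separate.

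Among the 6 genes of lipid breakdown and binding, Smpd1, Psap and Npc2 rose and Pla2g15 fell in both genotypes, while Lipa and Asah1 were called in neither. Smpd1, at chr7:105554360-105558389, encodes acid sphingomyelinase, which turns sphingomyelin into ceramide. Its libraries had 44.9, 45.3, 49.4, 50.4 and 52.8 CPM in KO smoke, against 25.3, 26.9, 27.4, 32.9 and 33.7 CPM in KO air. For WT the values were 50.04, 53.0, 53.1, 56.3 and 56.9 CPM in smoke, against 26.3, 27.4, 31.8, 31.9 and 34.8 CPM in air. No smoke library reached down to an air library, and the rise was 0.74 ± 0.11 log2 in KO (adjusted p 1.40e-05) and 0.83 ± 0.11 in WT (adjusted p 1.45e-06).

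Psap, the precursor of the saposins that lift sphingolipids to their hydrolases, was the most abundant member per length in WT. It averaged 7908 ± 708 CPM in KO smoke and 5948 ± 286 in KO air, and 8689 ± 902 in WT smoke and 6346 ± 165 in WT air (SD, n = 5 each), with no overlap of smoke and air. Its rise was 0.41 ± 0.080 log2 in KO (adjusted p 0.000479) and 0.45 ± 0.080 in WT (adjusted p 0.000105). Of the alternative settings only quantile normalization ended the call, and it turned the direction in WT. The change was then 0.079 in KO (adjusted p 0.576) and -0.079 in WT (adjusted p 0.525). That setting replaces each value by the mean for its rank, and its part in the lost call of Psap was not tested. Npc2, the soluble carrier that hands cholesterol to Npc1, rose by 0.38 ± 0.058 in KO (adjusted p 1.99e-05) and 0.34 ± 0.058 in WT (adjusted p 7.19e-05), without overlap in either.

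Pla2g15 was the only member to fall in both genotypes. It encodes the lysosomal phospholipase of alveolar macrophages, whose loss in mice leads to phospholipid build-up in these cells, and lies at chr8:106150399-106164715. Its libraries had 447, 447, 454, 480.5 and 486 CPM in KO smoke, against 630.2, 639, 663, 719 and 741 CPM in KO air. In WT they had 363, 375, 394, 417 and 433 CPM in smoke, against 563, 608, 608, 609.8 and 639 CPM in air. Every smoke library lay below every air library of its genotype, and the change was -0.55 ± 0.061 log2 in KO (adjusted p 1.31e-07) and -0.61 ± 0.061 in WT (adjusted p 1.26e-08). Lipa, the acid lipase of cholesteryl esters and triglycerides, had 0.088 ± 0.065 with smoke in KO and -0.090 ± 0.065 in WT (adjusted p 0.406 and 0.367), and it passed in WT under quantile normalization, at -0.23 (adjusted p 0.00660). Asah1, acid ceramidase, had 0.056 ± 0.066 in KO (adjusted p 0.630) and -0.18 ± 0.066 in WT, where the adjusted p of 0.0538 lay just over the threshold. It passed in WT without WT smoke IIa5, at -0.23 (adjusted p 0.00718), and in 8 of the other 32 alternatives, at adjusted p from 0.0125 to 0.0498.

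Of the proteases and the thioesterase, Lgmn and Tpp1 rose in both genotypes. Lgmn, at chr12:102394084-102439813, encodes legumain, the asparaginyl endopeptidase that also processes cathepsins. It had 466, 495, 535, 555 and 565 CPM in KO smoke, against 248, 284, 285, 287 and 305 CPM in KO air. The WT libraries had 527, 569.9, 590.5, 613 and 664 CPM in smoke, against 275, 286, 291, 298 and 301 CPM in air. The lowest smoke library exceeded the highest air library in both genotypes, and the rise was 1.85-fold in KO and 2.04-fold in WT, or 0.89 ± 0.068 log2 (adjusted p 1.33e-10) and 1.03 ± 0.068 log2 (adjusted p 4.12e-12). Tpp1, the tripeptidyl peptidase lost in a childhood neuronal storage disease in humans, rose by 0.33 ± 0.058 in KO (adjusted p 0.000120) and 0.30 ± 0.058 in WT (adjusted p 0.000243), without overlap. Ppt1, which removes fatty acids from cysteines of proteins, had 0.050 ± 0.067 and 0.073 ± 0.067 (adjusted p 0.682 and 0.489).

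Both acid phosphatases and progranulin rose in both genotypes, with no overlap of smoke and air libraries. Acp5, the tartrate-resistant acid phosphatase of osteoclasts and activated macrophages, at chr9:22126727-22135711, had 480.0, 599.8, 609, 634 and 697 CPM in KO smoke, against 255, 310.0, 310.3, 384 and 396 CPM in KO air. In WT it had 534, 556, 568, 588 and 619.6 CPM in smoke, against 333, 341, 371, 389 and 421 CPM in air. The rise was 0.87 ± 0.098 log2 in KO (adjusted p 1.48e-07) and 0.63 ± 0.098 in WT (adjusted p 1.73e-05). Acp2, the lysosomal acid phosphatase, rose by 0.41 ± 0.067 in KO (adjusted p 6.24e-05) and 0.39 ± 0.067 in WT (adjusted p 5.95e-05). Of its exon bases 12.6% are shared with Ddb2 on the opposite strand. Grn, at chr11:102430315-102437048, encodes progranulin, a secreted and lysosomal protein that is cut into granulins and supports hydrolase function. Its libraries had 1599.6, 1676, 1689, 1693 and 1773 CPM in KO smoke, against 1125, 1132, 1137, 1208 and 1225 CPM in KO air. In WT they had 1597, 1830.1, 1847, 1897 and 1921 CPM in smoke, against 1075, 1078, 1100.1, 1120.2 and 1165 CPM in air. The WT smoke mouse IIa5 was lowest of its group and still above every air library. Grn rose by 0.53 ± 0.058 log2 in KO (adjusted p 8.51e-08) and 0.71 ± 0.058 in WT (adjusted p 2.41e-10).

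Between genotypes the lysosomal genes differed little. In air 0 of the 33 were called higher and 1 lower in KO than in WT, against 0.416% of all genes called, 0.151% higher and 0.265% lower. In smoke 0 were higher and 1 lower, against 1.58% of all genes called, 0.892% higher and 0.688% lower. The split of all genes in smoke, 118 higher and 91 lower, became 197 higher and 69 lower when each library was centred on its median. KO and WT libraries did not overlap for 0 members above and 1 below in air (0.696% and 1.13% of all genes), and for 1 above and 1 below in smoke (1.7% and 2.54%). These comparisons use the same libraries as the smoke comparisons, and the median difference of the 33 was -0.038 log2 in air and 0.035 in smoke. The member called in both exposures was Scarb2, at chr5:92441314-92506833. It had 401, 412, 426, 501 and 531 CPM in KO air, against 518, 544, 554, 603 and 608 CPM in WT air. In smoke it had 396, 405, 435, 438 and 450.4 CPM in KO, against 493, 498, 509, 510.0 and 551 CPM in WT. The air groups overlapped by 1 KO mouse and the smoke groups did not, and the difference was -0.32 ± 0.071 log2 in air (adjusted p 0.0323) and -0.27 ± 0.071 in smoke (adjusted p 0.0458). Both calls were close to the threshold. That in air was lost without WT air Ia3, Ia4 or Ib4 or KO air IIIb3 or IIIb4 (adjusted p up to 0.109) and without IIIb2, IIIb3 and IIIb4 together (0.174). That in smoke was lost with any of 12 of the 20 libraries left out (adjusted p up to 0.120), among them each WT smoke library. Median centring also ended the call in smoke (adjusted p 0.0840), a prior fitted with no trend on the mean ended it in air (0.126) and in smoke (0.142), a covariate for the letter of the mouse code ended both, and a fit of the compared groups alone ended that in air (0.186).

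**Figure D4:**
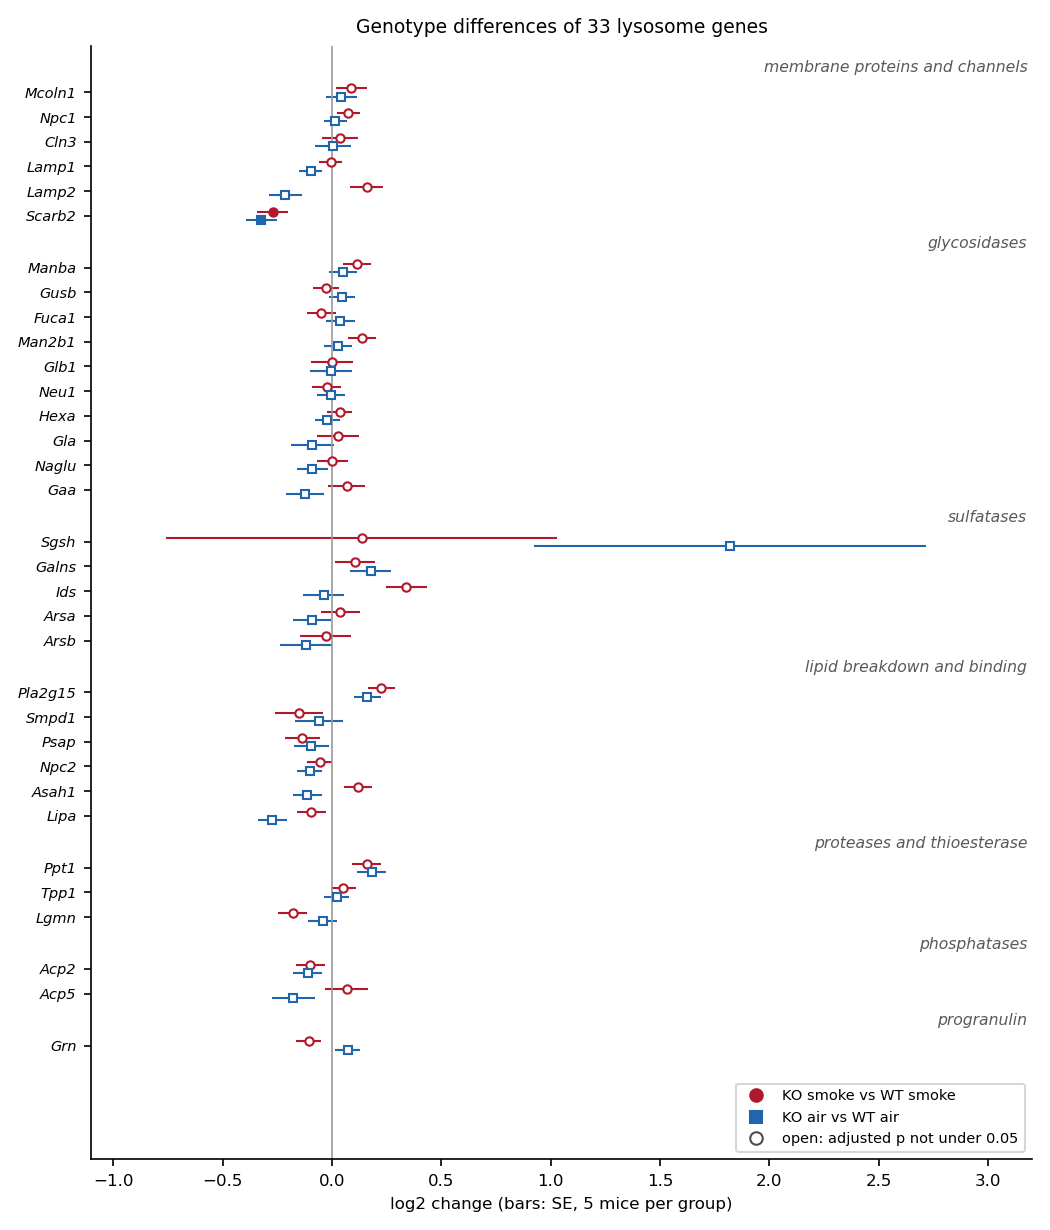
Difference of KO from WT for each of the 33 lysosomal genes, as log2 change on the horizontal axis with bars of 1 SE (5 mice per group), red circles in smoke and blue squares in air; filled symbols have an adjusted p under 0.05. Only Scarb2 has filled symbols, at -0.27 in smoke and -0.32 in air, and Sgsh has the widest bars.

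A few members came near the threshold and are named after their values were seen. Lipa had 1026, 1039, 1049.8, 1079 and 1098 CPM in KO air, against 1153, 1258, 1284, 1309 and 1397 CPM in WT air. These groups did not overlap, and the difference was -0.27 ± 0.065 log2 (adjusted p 0.0505), against -0.094 ± 0.065 in smoke (adjusted p 0.598). Pla2g15, which fell with smoke in both genotypes, was higher in every KO smoke library than in every WT smoke library, by 0.23 ± 0.061 log2 (adjusted p 0.0537), and differed by 0.16 ± 0.061 in air (adjusted p 0.281). For Ids the difference was 0.34 ± 0.094 in smoke (adjusted p 0.0592) and -0.038 ± 0.094 in air (adjusted p 0.915). Under the 13 other settings Pla2g15 in smoke passed in 10, Lipa in air in 6 and Ids in smoke in 6, and with 1 of the 20 libraries left out they passed in 6, 3 and 2 cases.

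Scarb2 lies on chromosome 5, and the lysosomal genes Naaa and Idua of that chromosome also differed between genotypes, as seen after their values were known. Of the further lysosomal genes listed below, they were the only ones called between genotypes in either exposure. Naaa, an acid amidase gene that is its near neighbour at chr5:92257660-92278181 (RefSeq, GRCm38.p6), was higher in KO by 0.46 ± 0.062 log2 in air (adjusted p 7.66e-05) and by 0.54 ± 0.062 in smoke (adjusted p 3.50e-06). Idua, the iduronidase gene at chr5:108660331-108685446, was lower in KO, with -1.16 ± 0.15 in air (adjusted p 3.52e-05) and -1.04 ± 0.15 in smoke (adjusted p 0.000125), at a mean of 28.5 CPM in KO smoke, 25.0 in KO air, 58.1 in WT smoke and 54.2 in WT air. Gusb, the other member on chromosome 5, was called in neither exposure (0.045 in air and -0.028 in smoke). Of the genes called between genotypes and given a position, 20 of 52 in air and 38 of 203 in smoke were on chromosome 5, which holds 6.29% of all positioned genes. The miR-155 locus is on chromosome 16, where 1 and 9 of the called genes lie. Whether the position of these genes bears on the differences was not tested.

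The response to smoke itself differed between genotypes for no member at the threshold. Limma called 0 of the 33 as higher and 0 as lower in the KO response minus the WT response, against 0% of all 13225 genes in either direction, 0% higher and 0% lower. At an unadjusted p under 0.05 there were 4 of the 33 members and 1302 of the 13225 genes. These are similar shares, so the count is not particular to the members. The 4 members were Lamp2 with 0.37 ± 0.11 log2 (unadjusted p 0.00142, adjusted p 0.236), Ids with 0.38 ± 0.13 (unadjusted p 0.00794, adjusted p 0.332), Asah1 with 0.23 ± 0.093 (unadjusted p 0.0186, adjusted p 0.385) and Grn with -0.18 ± 0.082 (unadjusted p 0.0361, adjusted p 0.467). Lamp2 alone passed in an alternative, without WT smoke IIa5, at 0.44 (adjusted p 0.0421). A miss of the threshold does not show that the genotypes respond alike: the 95% interval of the difference was -0.063 to 0.25 log2 for Lamp1, -0.33 to 0.059 for Lgmn, -0.057 to 0.44 for Gaa, -0.12 to 0.38 for Arsa, -0.28 to 0.11 for Fuca1, -0.34 to 0.20 for Galns and -4.27 to 0.91 for Sgsh. It was 0.16 to 0.59 for Lamp2, 0.11 to 0.65 for Ids, 0.042 to 0.42 for Asah1 and -0.35 to -0.012 for Grn. The intervals are not adjusted for the number of genes.

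Levels were compared between genes only per kilobase of the longest coding transcript, since longer transcripts yield more reads. On this scale (RPKM, which is CPM divided by the length in kilobases, mean ± SD, n = 5 WT mice) Psap led with 3270.2 ± 339 in WT smoke and 2388 ± 62.2 in WT air. Lamp1 followed with 862 ± 15.8 in smoke and 682 ± 19.6 in air, and Grn with 777 ± 55.3 and 473 ± 15.7. In WT air Lipa came next at 431 ± 29.7, within the summed SDs of Grn and of Hexa at 389 ± 18.9, and then Acp5 at 256 ± 24.9. In WT smoke these last 3 lay within their SDs of each other, Hexa at 416 ± 16.4, Lipa at 406 ± 38.0 and Acp5 at 396 ± 22.5. Sgsh was lowest, with 0.621 ± 0.220 in smoke and 0.0524 ± 0.0631 in air. Next lowest were Arsb in WT smoke, at 14.3 ± 2.06, and Smpd1 in WT air, at 12.6 ± 1.45, while Smpd1 in smoke stood at 22.3 ± 1.16, above Ids at 15.7 ± 2.02. Lgmn ranked 7 among the 33 in WT smoke and 12 in WT air, and Pla2g15 ranked 12 in WT smoke and 7 in WT air, so these genes changed places. The other ranks moved by at most 4.

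**Figure D5:**
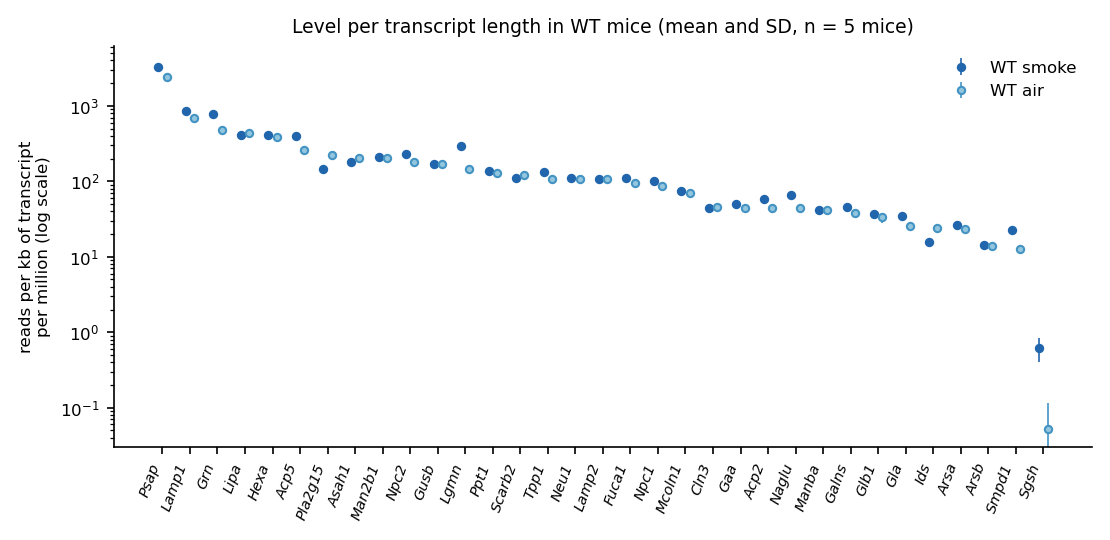
Level in RPKM in WT mice for the 33 lysosomal genes, on a log axis, ordered by the level in WT air; dark points are WT smoke, light points WT air, and bars the SD (n = 5 mice, mostly hidden by the points). Psap is highest at 2388 ± 62.2 in WT air and Sgsh lowest, and the dark point lies above the light one for most genes.

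Other lysosomal genes, from 4 lists by function, moved in part in the same direction with smoke. To set beside the counts of these 4 lists, 7.05% of all genes rose and 8.45% fell in KO. In WT 9.66% of all genes rose and 12.8% fell. The median change of all genes was -0.012 log2 in KO and -0.025 in WT. Of 17 further glycan enzymes 10 rose and 0 fell in KO, and 9 rose and 0 fell in WT, with median changes of 0.33 and 0.35 log2. Hgsnat, which acts with Naglu and Sgsh on heparan sulphate, rose by 0.47 ± 0.081 in KO (adjusted p 0.000111) and 0.55 ± 0.081 in WT (adjusted p 8.64e-06). Of 18 measured enzymes of lipids, nucleic acids and proteins, from 20 listed, 6 rose and 3 fell in KO and 8 rose and 3 fell in WT (medians 0.10 and 0.19). The serine carboxypeptidase gene Scpep1 rose by 0.85 in KO and 0.79 in WT, the exonuclease gene Pld3 by 0.36 and 0.42, and the dipeptidase gene Dpp7 by 0.46 and 0.43. Pld4, a relative of Pld3, went the other way, at -1.01 ± 0.12 in KO (adjusted p 2.97e-07) and -1.04 ± 0.12 in WT (adjusted p 1.11e-07).

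Of 29 further membrane proteins 9 rose and 3 fell in KO, and 7 rose and 4 fell in WT (medians 0.15 and 0.11). Among those that rose were the tetraspanin gene Cd63 with 1.68 in KO and 1.93 in WT, the glycoprotein gene Gpnmb with 1.30 and 1.17 and Cd68 with 0.69 and 0.91, while Laptm4a fell, with -0.32 ± 0.073 in KO and -0.46 ± 0.073 in WT (adjusted p 0.00259 and 2.24e-05). Of 18 genes of lysosomal sorting and transcriptional control 4 rose and 2 fell in each genotype (medians 0.036 and -0.041). Zkscan3, reported as a repressor of lysosomal and autophagy genes, fell, with -0.37 ± 0.096 in KO (adjusted p 0.00742) and -0.64 ± 0.096 in WT (adjusted p 1.01e-05). Fnip2, a partner of folliculin in nutrient signalling at the lysosome, rose by 0.76 ± 0.093 in KO (adjusted p 8.24e-07) and 0.57 ± 0.093 in WT (adjusted p 3.62e-05). The sorting receptor gene Sort1 had -0.13 ± 0.070 in KO (adjusted p 0.213) and fell in WT, with -0.39 ± 0.070 (adjusted p 0.000124). Cln6, needed for export of hydrolases from the endoplasmic reticulum, had 0.16 ± 0.096 in KO (adjusted p 0.284) and rose in WT by 0.42 ± 0.096 (adjusted p 0.00171). Tfeb and Tfe3, whose factors read the promoter element, are given after their values were seen, while Mitf of the same list is not reported here. Tfeb had 0.064 ± 0.12 in KO and -0.091 ± 0.12 in WT (adjusted p 0.772 and 0.644). Tfe3 fell in KO, with -0.27 ± 0.086 (adjusted p 0.0288), and had -0.13 ± 0.086 in WT (adjusted p 0.324).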

How the data were processed

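Alveolar macrophages from 20 mice were profiled by poly-A RNA sequencing, with 25 ng of RNA per library per the labels' protocols. STAR 2.6.0c, limma and the build GRCm38.p6 are named per the submitters' processing notes, and the sources used here give no counting tool, annotation, strand setting or filter. The authors deposited log2 CPM values, and these give back whole reads (100% of values within 0.001) when read as 0.5 reads added to each count and 1 to each library total. CPM was computed from those reads, and totals of 6885680 to 11952088 limit precision for scarce genes only.

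Limma 3.58.1 (R 4.3.3) took the deposited log2 CPM of the 13225 genes in a model of 4 group means with a trended empirical Bayes prior, for 5 contrasts. P-values are 2-sided and Benjamini-Hochberg adjusted over all genes within each contrast, with calls under 0.05. Groups came from the labels, and nothing pairs the mice. Values of every library were given for the 4 called members that rose most and all called members that fell in each smoke contrast, for members called between genotypes, and for Lamp1 and Lipa as added examples, and up to 4 called genes per other list were named by smallest p in WT, of which some are not reported here. The members, lists and rules were chosen with earlier results of these data known. Positions, lengths and exon overlaps came from GENCODE M21, promoters from RefSeq (GRCm38.p6). Transcripts were aligned with blastn 2.17.0 (at least 95% identity over 100 bases), and apart from overlapping genes only Acp2 matched another gene, Sirt5, over 124 bases. Python 3.11.15, pandas 2.3.3 and matplotlib 3.10.9 did the rest. The fit was tested on simulated data.

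Alternatives were an untrended prior, a robust prior, filters at a mean log2 CPM of 1 or 3, log2(CPM + 1), quantile normalization, median centring, only the compared groups, a covariate for the letter inside each mouse code, array weights, voom weights on the recovered reads, removal of a loess trend on transcript length, each library left out, and the 3 KO air libraries IIIb2, IIIb3 and IIIb4 left out together.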

Additional observations from a re-analysis of the deposited data

Results flagged for a closer look

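In each group of 5 mice the library farthest from the others was compared with the range of its group for each of the 33 genes, and 6 of 132 gene and group pairs had a mouse farther out than Dixon's 95% limit, where about 1 in 20 is flagged by chance. In KO smoke, Glb1 was highest in IVa2 at 93.3 CPM (the others 86.9 to 88.6), and Gusb was lowest in IVb4 at 414 CPM (456 to 472). The KO smoke mouse IVb2 was lowest for Cln3 at 134 CPM (149 to 151) and highest for Mcoln1 at 196 CPM (152 to 161). In WT smoke, Arsb was lowest in IIb3 at 43.2 CPM (59.1 to 63.9) and Grn was lowest in IIa5 at 1597 CPM (1830.1 to 1921). None of these genes other than Grn was called with smoke, and the call of Grn in WT held with IIa5 left out.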

How the results depend on the processing

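Of the members called with smoke, 13 of 16 in KO and 14 of 17 in WT stayed called under each alternative run, which were 33 per contrast (31 for Sgsh, which both filters remove). Passing under at least 1 alternative were 6 uncalled members in KO (Hexa, Man2b1, Mcoln1, Galns, Ids, Sgsh) and 6 in WT (Gaa, Arsa, Mcoln1, Scarb2, Asah1, Lipa). The members called ranged over settings other than a left-out library from 14 to 18 higher and 1 lower in KO and from 14 to 17 higher and 2 to 4 lower in WT. The exceptions are Psap under quantile normalization (0.079 in KO, and -0.0787 in WT, a turned direction), Gaa and Arsa in KO without the 3 KO air libraries that stand apart, and Fuca1 and Galns in WT with single libraries left out; the cause was not tested.

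Counts over all genes moved more. Without those 3 libraries 1220 genes were called with smoke in KO, against 2051. Between genotypes in air, 55 genes became 24 with only the compared groups or without the 3 libraries and 29 to 182 with a library left out (29 without WT air Ia4, 182 without KO air IIIa5), and members called were 0 (no trend, compared groups, letter covariate, without the 3), 2 (robust, both filters, log2(CPM + 1), quantile, voom) and 0 to 2 with a library left out. In smoke, 209 genes became 105 without trend, 334 with only the compared groups, 954 with array weights, 133 with the length trend removed, 356 without the 3 libraries and 88 to 374 with a library left out (88 without WT smoke IIb1, 374 without IIa5). Members called there were 0 (no trend, letter covariate), 2 (robust, filter at 1, median centring, voom, length trend), 3 (filter at 3, log2(CPM + 1), quantile, array weights, without the 3) and 0 to 3 with a library left out. With median centring these were 2 higher and 0 lower, without Scarb2, and the members added under the other settings were Pla2g15 and Ids, both higher. The difference of the smoke responses gave 0 genes, and 3 without trend, 2 robust, 2 and 4 with filters at 1 and 3, 4 with log2(CPM + 1), 3 quantile, 2 median centring, 1 with array weights and 0 to 42 with a library left out (42 without WT smoke IIa5, 19 without KO air IIIa5, 10 without IIIb1); members were 0 to 1. The median change of members in KO ran from 0.16 (without KO air IIIa5) to 0.27 with a library left out, against 0.22. No paired analysis was possible because each mouse code occurs once. Among the members, low read numbers limit Sgsh only.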
